A study of Mus musculus with 6 samples.

Results

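S100 proteins are small calcium-binding proteins, and 10 of their genes were followed here in the sciatic nerve of newborn mice: *S100b*, *S100a1*, *S100a4*, *S100a6*, *S100a8*, *S100a9*, *S100a10*, *S100a11*, *S100a13* and *S100a16*. They were picked by symbol from the 59485 genes of the deposited table, and all 10 were found and reached the minimum level for testing. The table lists 7 further S100 genes, of which 3 were tested. Nerves were dissected at postnatal day 4 (P4) from 3 control and 3 mutant mice, 1 poly-A library per animal. Mutants were Ht-PA-Cre; Adar1fl/fl;R26R, in which Cre under the human tissue plasminogen promoter recombines the floxed gene of the RNA-editing enzyme ADAR1 in neural crest (NC) cells, the source of Schwann cells (SCs), and R26R is a YFP tracer. Controls are given as wild-type, a name that the study's methods use for Adar1fl/fl;R26R or Adar1fl/+;R26R mice without Cre. Cells of the nerve that do not come from the NC, such as endothelium and blood, keep the gene in the mutants.

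S100 proteins mostly act as dimers that expose a binding face when calcium enters their EF-hand loops. Inside cells they regulate the cytoskeleton, annexins and enzymes, and after release some of them signal through the receptors RAGE and TLR4. In peripheral nerve, S100B is the antigen by which SCs are usually recognised, S100A4 is common in fibroblasts and macrophages, and the S100A8 and S100A9 pair, calprotectin, is abundant in neutrophils.

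Values are normalised read counts, that is, reads on a gene divided by the size factor of the library. Libraries held between 50938349 and 78250094 reads on genes. Changes are log2 fold changes of mutant over control on log2(value + 1), tested with limma in 25802 genes. The threshold was a change of at least 2-fold with an unadjusted p no higher than 0.05. The Benjamini-Hochberg adjustment ran over every gene tested. Errors after ± are SDs with n = 3, unless named as standard errors. *Adar* itself was higher in the libraries labelled mutant (10284 ± 1306 against 1601 ± 467). The table has a single value per gene, over all cells of the nerve, and cannot show the floxed segment. The deletion could therefore not be tested from this value. Libraries are called control-labelled and mutant-labelled, and each direction follows those labels. The defining SC marker *Sox10* was high in every library, at 5838 or more. The tissue also held skeletal muscle RNA, whose 9 markers summed to between 7748 and 37342 in control-labelled and between 49435 and 350106 in mutant-labelled nerves.

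Of the 10 genes, 3 fell past the threshold, namely *S100b*, *S100a1* and *S100a13*. None rose past it. Over all tested genes, 24.2% passed, 10.4% lower and 13.9% higher. With an adjusted p at or under 0.05 and no limit on the fold, 4 of the 10 were called (35.0% of all genes), the 3 above and *S100a10*, which rose. In 5 of the 10 the values of both groups did not overlap (49.2% of all genes). The median log2 fold change of the 10 genes was 0.08, against 0.03 for all tested genes.

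**Figure D1:**
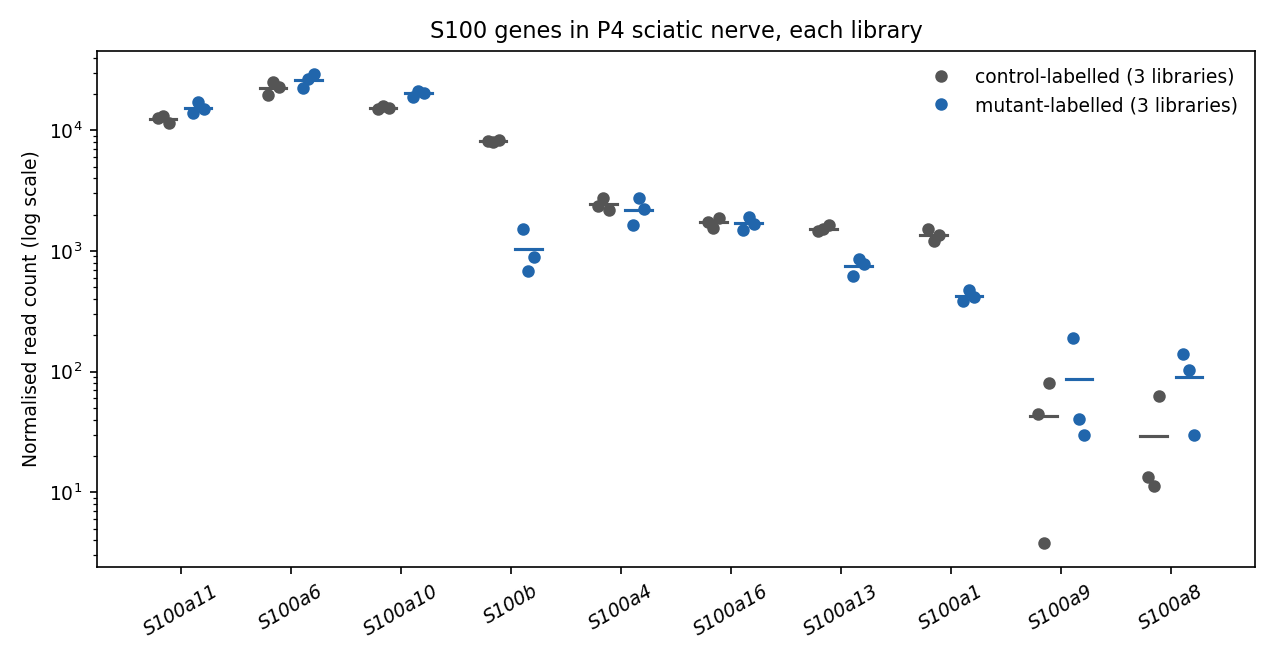
Normalised read counts (log axis) of the 10 S100 genes in each of 3 control-labelled (grey) and 3 mutant-labelled (blue) libraries, with a line at each mean. *S100b*, *S100a1* and *S100a13* lie lower in all mutant-labelled libraries, *S100a10* and *S100a11* slightly higher, and *S100a8* and *S100a9* are low and scattered.

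*S100b* (GSMG0003177, chromosome 10, 76253836 to 76261318, mm10, plus strand) showed the largest fall of the 10. It had 8163, 8042 and 8379 normalised reads across control-labelled replicates 1 to 3, against 1535, 686 and 887 across mutant-labelled replicates 1 to 3. Control-labelled nerves were almost alike, with a coefficient of variation of 2.08%, whereas it was 42.8% in mutant-labelled nerves, and the groups were far apart. The log2 fold change, -3.07 ± 0.25 (standard error), had an adjusted p of 6.05e-05 and left 12.6% of the control-labelled mean. This was rank 443 among the 2671 lowered genes. From whole-nerve RNA alone, fewer SCs and less *S100b* RNA per SC cannot be told apart. By electron microscopy, the study counted a similar density of SCs in mutant and control sciatic nerves at P4.

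The fall of *S100b* was set beside other genes of the SC lineage in the same libraries. *Sox10*, the transcription factor that SCs keep throughout life, had 12618, 11719 and 10919.5 normalised reads across control-labelled replicates 1 to 3, against 9171, 5838 and 6828 across mutant-labelled replicates 1 to 3. Its log2 fold change of -0.71 (adjusted p = 0.00874) stayed under 2-fold, and without the trend in eBayes the adjusted p was 0.055. In each library, *S100b* relative to *Sox10* was 0.647, 0.686 and 0.767 in control-labelled and 0.167, 0.118 and 0.13 in mutant-labelled nerves. The log2 of this ratio therefore fell by 2.35, with no overlap between groups, and the exact two-sided permutation test gave p = 0.1, the smallest that 3 against 3 allows. *Erbb3*, the neuregulin receptor subunit of SCs, fell by 1.55 on the log2 scale (adjusted p = 0.000296), while the low-affinity neurotrophin receptor *Ngfr* had a log2 fold change of -0.00 (adjusted p = 0.989). Of the 8 SC lineage markers, 3 fell past the threshold (*Erbb3*, *Fabp7* and *Gfra3*) and none rose. *Gfra3*, a receptor subunit for the ligand artemin, kept 7.43% of its control-labelled mean, less than *S100b* did.

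All 5 myelin markers fell past the threshold. *Mbp*, a protein of compact myelin, kept 8.94%, 0.859% and 2.80% of its control-labelled mean in mutant-labelled replicates 1, 2 and 3. *S100b* stood at 18.7%, 8.37% and 10.8% in those replicates, so the 3 nerves had the same order for both genes.

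**Figure D2:**
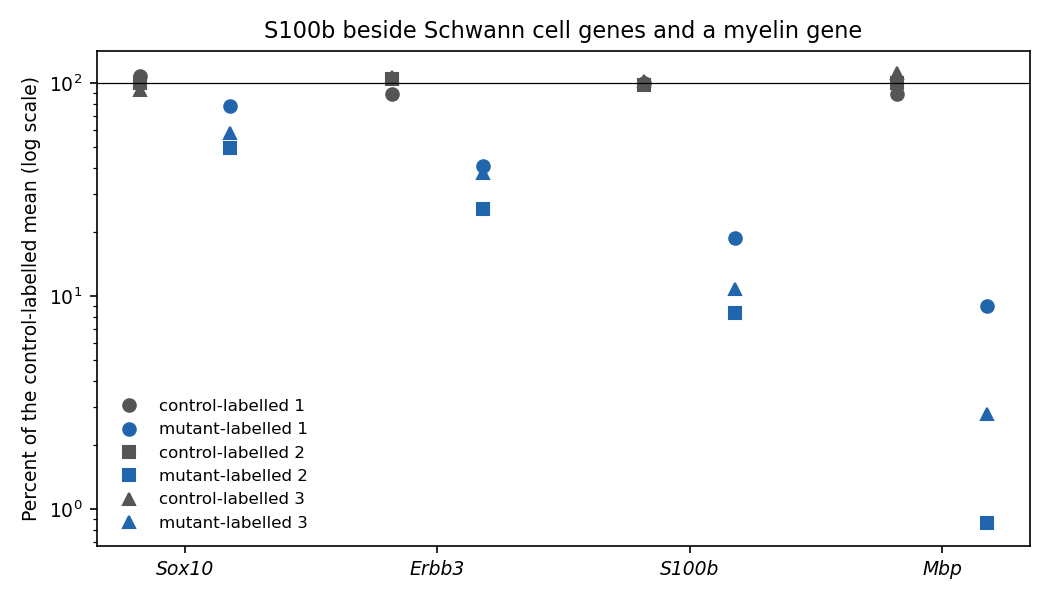
Level of *Sox10*, *Erbb3*, *S100b* and *Mbp* in each library, as percent of the control-labelled mean of that gene on a log axis, with a symbol shape per replicate. Mutant-labelled replicate 1 (18.7% for *S100b*) is highest and replicate 2 (8.37%) lowest for all 4 genes.

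*S100b* is also made outside SCs, by chondrocytes, melanocytes and adipocytes among others, and markers of these cells were read in the same nerves. Of 5 chondrocyte markers, 4 were tested and 2 fell, *Col2a1* and *Col9a1*. The list summed to between 10123 and 13341 in control-labelled and between 347 and 865 in mutant-labelled nerves, but the control-labelled sums are mostly *Col2a1*, and *Acan* (means 98.8 and 118) and *Comp* (57.6 and 104) overlapped between groups. *Matn1*, the cartilage-restricted marker, had at most 11.9 normalised reads in any library. Of 5 melanocyte markers, 4 were tested, of which *Dct* and *Pmel* fell and *Mlana* rose, and their sum ran from 529 to 721 in control-labelled and from 141 to 425 in mutant-labelled nerves. None of the 6 adipocyte markers passed the threshold. Their sum was highest, at 23515, in mutant-labelled replicate 2, the nerve with the least *S100b*. The part of these cells in the *S100b* level was not tested.

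The promoter window of *S100b* is shown because this gene changed most of the 10. It is the RefSeq window on GRCm38.p6, the genome of mm10, around the transcription start (chr10:76253586-76253885, plus strand), 5′ to 3′, with CG dinucleotides in capitals.
S100b: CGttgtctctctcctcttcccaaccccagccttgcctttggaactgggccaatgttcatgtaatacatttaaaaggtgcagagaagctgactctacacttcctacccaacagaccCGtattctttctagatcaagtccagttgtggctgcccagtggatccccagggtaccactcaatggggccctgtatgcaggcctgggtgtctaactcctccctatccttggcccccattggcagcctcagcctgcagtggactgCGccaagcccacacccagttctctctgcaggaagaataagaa
The window holds 3 CG dinucleotides, at the lower quartile of all 32851 RefSeq windows of this length (median 7, upper quartile 20).

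*S100a1* and *S100a13* are neighbors in a head-to-head pair on chromosome 3, and both fell. *S100a1* (GSMG0025670, 90511034 to 90514392, minus strand), known for binding the calcium channel and pump of the sarcoplasmic reticulum in muscle, had 1525, 1221 and 1358 normalised reads across control-labelled replicates 1 to 3, against 384, 473 and 411 across mutant-labelled replicates 1 to 3. The mutant-labelled values were 28.1%, 34.6% and 30.1% of the control-labelled mean, and the groups did not overlap. Its log2 fold change was -1.69 ± 0.15 (standard error; adjusted p = 8.29e-05). *S100a13* (GSMG0024580, 90514435 to 90524579, plus strand), which takes part in the export of FGF1 and interleukin 1 alpha, had 1451, 1513 and 1627 normalised reads across control-labelled replicates 1 to 3, against 625, 859 and 785 across mutant-labelled replicates 1 to 3. It too was lower in each mutant-labelled nerve, at a log2 fold change of -1.03 ± 0.15 (standard error) and an adjusted p of 0.00103. This change sat at the 2-fold limit. It was -0.98 without control-labelled replicate 3, -0.90 without mutant-labelled replicate 1 and -0.86 after scaling every library to 1 total, each with an adjusted p from limma under 0.05 (0.00667, 0.00294 and 0.00236).

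The pair did not fall in equal measure. The ratio of *S100a1* to *S100a13* was 1.05, 0.807 and 0.835 across control-labelled replicates 1 to 3, against 0.615, 0.551 and 0.524 across mutant-labelled replicates 1 to 3. This ratio was added after the values were seen and is given without a test. Among the mutant-labelled nerves, both genes were lowest in replicate 1 and highest in replicate 2, the reverse of *S100b*. Of the 9 muscle markers, 8 rose past the threshold, and their sum was highest, at 350106, in mutant-labelled replicate 3, where *S100a1* was 411. The part of muscle RNA in *S100a1* was not tested.

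The stretch from which both genes start is shown because they fell together. It is the RefSeq window of *S100a13* on GRCm38.p6 (chr3:90514185-90514484, plus strand), 5′ to 3′, with the 42 bases between the starts of both genes in the deposited table in capitals.
S100a13: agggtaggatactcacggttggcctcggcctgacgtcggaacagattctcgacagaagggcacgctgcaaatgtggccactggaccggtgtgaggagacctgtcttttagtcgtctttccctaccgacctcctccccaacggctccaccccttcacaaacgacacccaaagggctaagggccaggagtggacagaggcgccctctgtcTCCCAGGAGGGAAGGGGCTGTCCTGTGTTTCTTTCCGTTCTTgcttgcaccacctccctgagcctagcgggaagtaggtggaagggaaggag
*S100a1* is read to the left of the capitals and *S100a13* to the right. The window holds 14 CG dinucleotides, above the median of 7.

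Promoter windows of 9 of the 10 genes were matched and searched on both strands for 6 short motifs. TATAAA, the core promoter box, was found in 3 of them, *S100a4*, *S100a8* and *S100a9*, against 13.6% of all windows. TGANTCA (AP-1) was found in *S100a11* only among these 9, against 7.81% of all windows. AANNGAAA, the core of the interferon-stimulated response element, was found in *S100a1*, *S100a6* and *S100a13*, the first and last of which have overlapping windows, and in 23.9% of all windows. TTCNNNGAA (the STAT element GAS) was found in none of the 9 and in 8.3% of all windows. ACAAAG (SOX core) and TTGCNNAA (C/EBP) were found in 1 window each, *S100a8* and *S100a9*, against 18.7% and 10.8%. Of the 3 genes that fell, the *S100b* window held none of these strings. The windows of *S100a1* and *S100a13* held only the interferon core, at 1 site that both windows share.

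*S100a10* and *S100a11* lie side by side on chromosome 3, about 2.82 Mb beyond the other cluster genes, and were among the most abundant members. *S100a10* (GSMG0024624, 93555117 to 93564645) encodes p11, the member that no longer needs calcium and that binds annexin A2 as a heterotetramer. It had 14983, 15954 and 15366 normalised reads across control-labelled replicates 1 to 3, against 18935, 21243 and 20565 across mutant-labelled replicates 1 to 3. All mutant-labelled values were higher, by 0.39 on the log2 scale (95% interval 0.20 to 0.58, adjusted p = 0.00765), well under 2-fold. The rise lost its call when libraries were set to a common 75th percentile (0.27, adjusted p = 0.0663) and without the trend in limma's eBayes step (adjusted p = 0.0634). *S100a11* (GSMG0024623, 93520494 to 93526288), a partner of annexin A1, had 12747, 13040.5 and 11502 normalised reads across control-labelled replicates 1 to 3, against 13928, 17182 and 14944 across mutant-labelled replicates 1 to 3. These values did not overlap either, but the log2 fold change of 0.30 (95% interval 0.06 to 0.54) had an adjusted p of 0.053 and was not called. It was called in 5 of the 17 other fits, with the lowest adjusted p, 0.00915, after rescaling to the same total.

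*S100a6*, *S100a4* and *S100a16* were not called, and their values overlapped between groups. *S100a6* (GSMG0024587, 90612894 to 90614414), or calcyclin, had 19705, 25312 and 22828 normalised reads across control-labelled replicates 1 to 3, against 22276, 26486 and 29190.5 across mutant-labelled replicates 1 to 3. Its log2 fold change was 0.20 with a 95% interval from -0.10 to 0.50 and an adjusted p of 0.27. Rescaling to the same total gave 0.36 with an adjusted p of 0.0461. *S100a4* (GSMG0024585, 90603763 to 90606044), whose product binds nonmuscle myosin, had 2372, 2737 and 2176 normalised reads across control-labelled replicates 1 to 3, against 1632, 2737 and 2239 across mutant-labelled replicates 1 to 3. The log2 fold change of *S100a4* was -0.17 with a 95% interval from -0.59 to 0.26 (adjusted p = 0.527), and it was 0.03 without mutant-labelled replicate 1, the nerve with the lowest value. *S100a16* (GSMG0024582, 90537254 to 90543149), a widely expressed member, had 1741, 1559 and 1875 normalised reads across control-labelled replicates 1 to 3, against 1505, 1912 and 1658 across mutant-labelled replicates 1 to 3. The log2 fold change of *S100a16* was -0.03 (95% interval -0.33 to 0.26, adjusted p = 0.873) and 0.13 after scaling to 1 total. The ratio of *S100a6* to *S100a4*, 2 genes of the same cluster, differed by 0.36 on the log2 scale with overlapping values (exact permutation p = 0.2). Of 8 fibroblast markers, the collagen genes *Col1a1* and *Col1a2* fell past the threshold and none rose, and the median log2 fold change of the list was 0.08. The list summed to between 1933750 and 2180670 in control-labelled and between 790676 and 1192170 in mutant-labelled nerves, but this sum is nearly all collagen, and *Dcn*, a proteoglycan of fibroblasts, had means of 45406 and 45217.

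*S100a8* and *S100a9*, the calprotectin subunits, were the rarest of the 10 and the most uneven. *S100a8* (GSMG0024589, 90669070 to 90670034) had 13.3, 11.3 and 63.4 normalised reads across control-labelled replicates 1 to 3, against 140.4, 102 and 29.7 across mutant-labelled replicates 1 to 3. The groups overlapped, and the log2 fold change was 1.77 ± 0.80 (standard error), with a 95% interval from -0.07 to 3.60 (adjusted p = 0.123). Single libraries decide it. Without control-labelled replicate 3 the gene passed the threshold at 2.52 (adjusted p = 0.0408), and without mutant-labelled replicate 3 at 2.43 (adjusted p = 0.0637). DESeq2 on the recovered reads also placed it past the threshold (1.64, adjusted p = 0.0926), as did rescaling to the same total (1.92, adjusted p = 0.094), while edgeR did not.

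*S100a9* (GSMG0025671, 90692631 to 90695721) had 44.4, 3.78 and 79.8 normalised reads across control-labelled replicates 1 to 3, against 189.85, 40.5 and 29.7 across mutant-labelled replicates 1 to 3. Its log2 fold change was 1.26 ± 1.10 (standard error; adjusted p = 0.407). Over the fits that left out 1 library it ran from 0.04, without control-labelled replicate 2, the nerve with the lowest value, to 2.08, without control-labelled replicate 3, and it was 0.46 without mutant-labelled replicate 1, the nerve with the highest. The ratio of *S100a8* to *S100a9* ran from 0.3 to 3 among control-labelled and from 0.739 to 2.52 among mutant-labelled nerves. Of 12 neutrophil markers, 9 were tested, 3 rose past the threshold (*Csf3r*, *Lcn2* and *Mmp9*) and *Mmp8* fell. Their sum ran from 304 to 378 in control-labelled and from 349 to 1178 in mutant-labelled nerves. The defining surface marker *Ly6g* had no reads in control-labelled and at most 5.93 normalised reads in mutant-labelled nerves, and the granule gene *Ngp* was highest, at 160.03, in mutant-labelled replicate 1, as *S100a8* and *S100a9* were, whereas the summed markers were highest in replicate 2, where *Lcn2* alone had 820.1. The part of neutrophils in both genes was not tested.

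**Figure D3:**
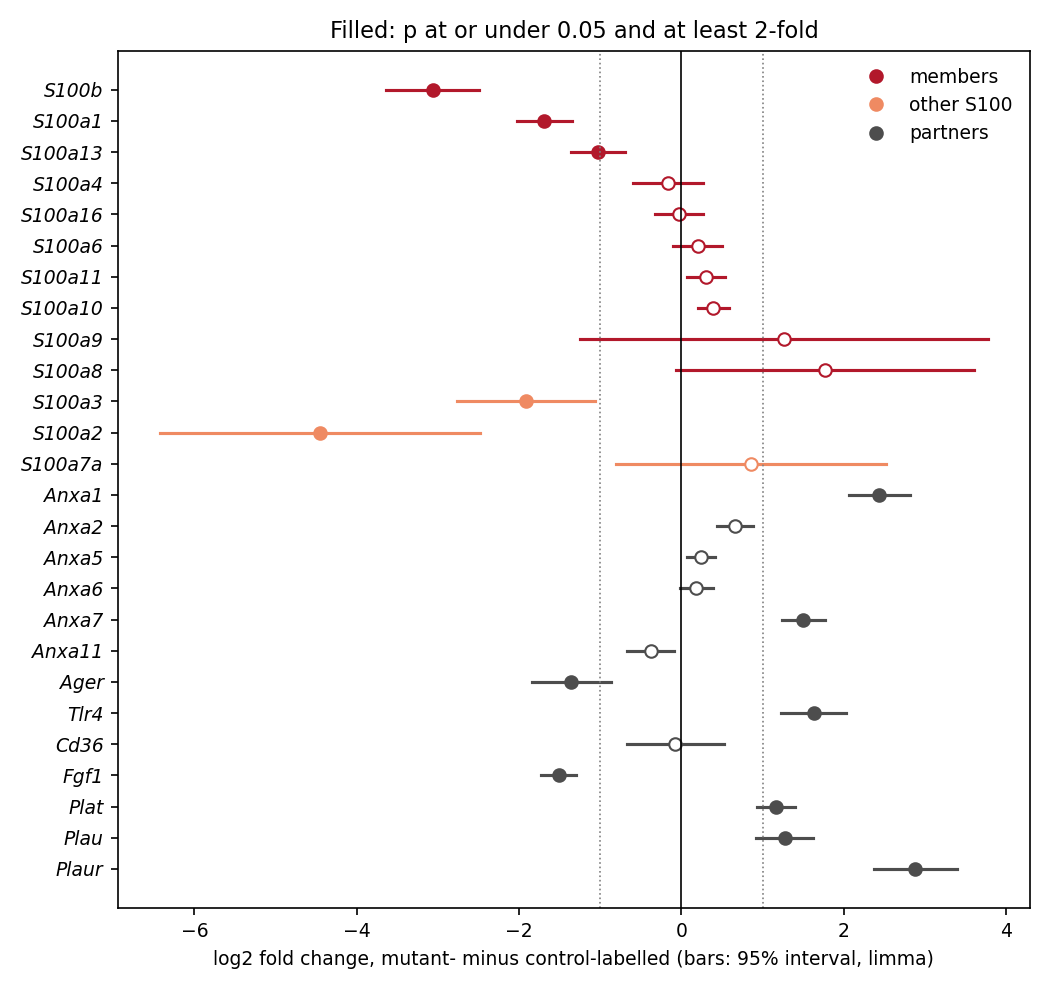
log2 fold changes (mutant- minus control-labelled, limma) with 95% intervals for the 10 S100 genes (red), 3 further tested S100 genes (orange) and selected partner genes (grey), with filled symbols past the threshold and dotted lines at 2-fold. *S100b* (-3.07), *S100a1* and *S100a13* are the filled red symbols, and the intervals of *S100a8* and *S100a9* span 0.

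Because genes of different length collect different numbers of reads, levels of the 10 genes were compared per kilobase (kb) of GENCODE M21 exon, an approximation, since the lengths of the counted regions are not in the table. By the control-labelled mean per kb, the order was *S100a11* (24325), *S100a6* (16543), *S100a10* (12735), *S100b* (5522), *S100a4* (4158), *S100a13* (2140.4), *S100a1* (1971), *S100a16* (1067), *S100a9* (81.8) and *S100a8* (42.3). The exon length of *S100a6* (1367 bases) comes from a model that ends at 90624181, beyond the end of the counted gene (90614414). The level per kb of *S100a6* and its share of the sum may therefore be understated. *S100a13* and *S100a1* are neighbors in this order whose SDs overlap, and so are *S100a9* and *S100a8*. In mutant-labelled nerves *S100b* had a mean of 698 per kb, and its values overlapped those of *S100a13* (1058), *S100a16* (1046) and *S100a1* (609). *S100a1* made up more of the summed level than *S100b* in replicate 2 (0.863% against 0.585%) and less in replicate 1 (0.839% against 1.57%).

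The summed level of the 10 genes overlapped between groups, while the share of *S100b* in it did not. The sum per kb was 66692, 72168 and 66896 across control-labelled replicates 1 to 3, against 65928, 78966 and 74814 across mutant-labelled replicates 1 to 3. *S100b* contributed 8.25%, 7.51% and 8.44% of it in control-labelled nerves but 1.57%, 0.585% and 0.799% in mutant-labelled ones. *S100a11*, *S100a6* and *S100a10* together made up most of the sum in every library, with mean shares of 35.5%, 24.1% and 18.6% in control-labelled and 41.0%, 25.9% and 22.9% in mutant-labelled nerves.

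**Figure D4:**
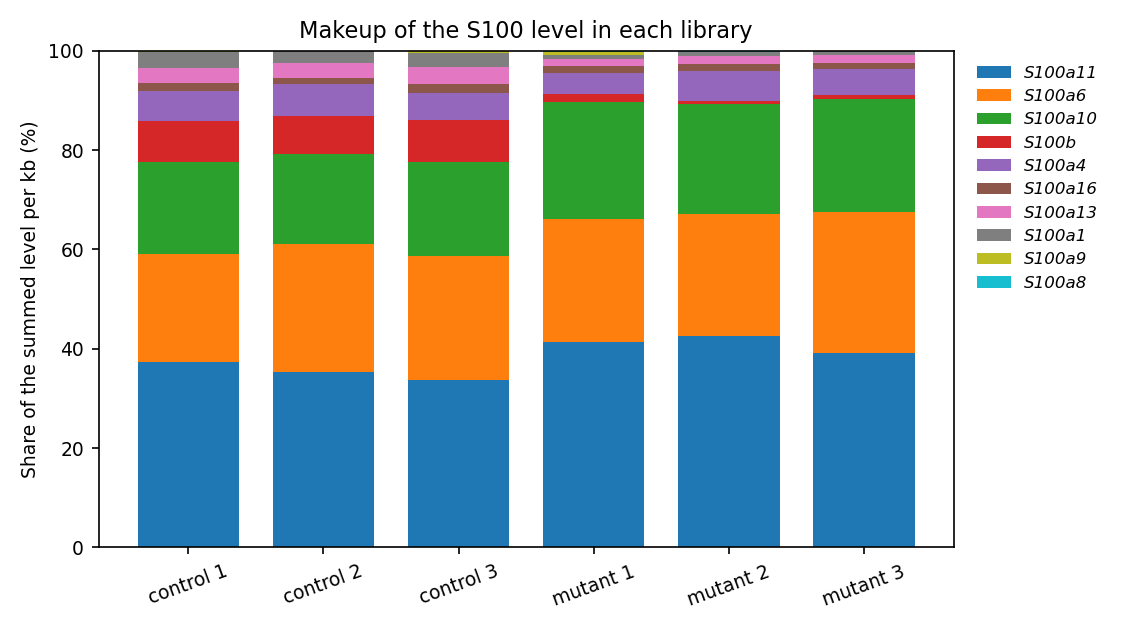
Share of each of the 10 S100 genes in their summed level per kb, in percent, for each library (stacked bars from 0 to 100). The *S100b* band is 7.51% to 8.44% in the 3 control-labelled libraries and 0.585% to 1.57% in the 3 mutant-labelled ones.

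Of the 10 genes, 9 lie on chromosome 3. Of these, 7 sit within 184.7 kb (90511034 to 90695721). *S100a1* and *S100a13* at its start fell, *S100a16* 22.8 kb further had no call, *S100a3* at 70.2 kb fell, and *S100a4* at 89.3 kb, *S100a6* at 98.5 kb, *S100a8* at 154.6 kb and *S100a9* at 181.3 kb were not called. *Chtop*, the next gene before the pair, had a log2 fold change of 0.05 (adjusted p = 0.749), against -1.69 for *S100a1*.

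**Figure D5:**
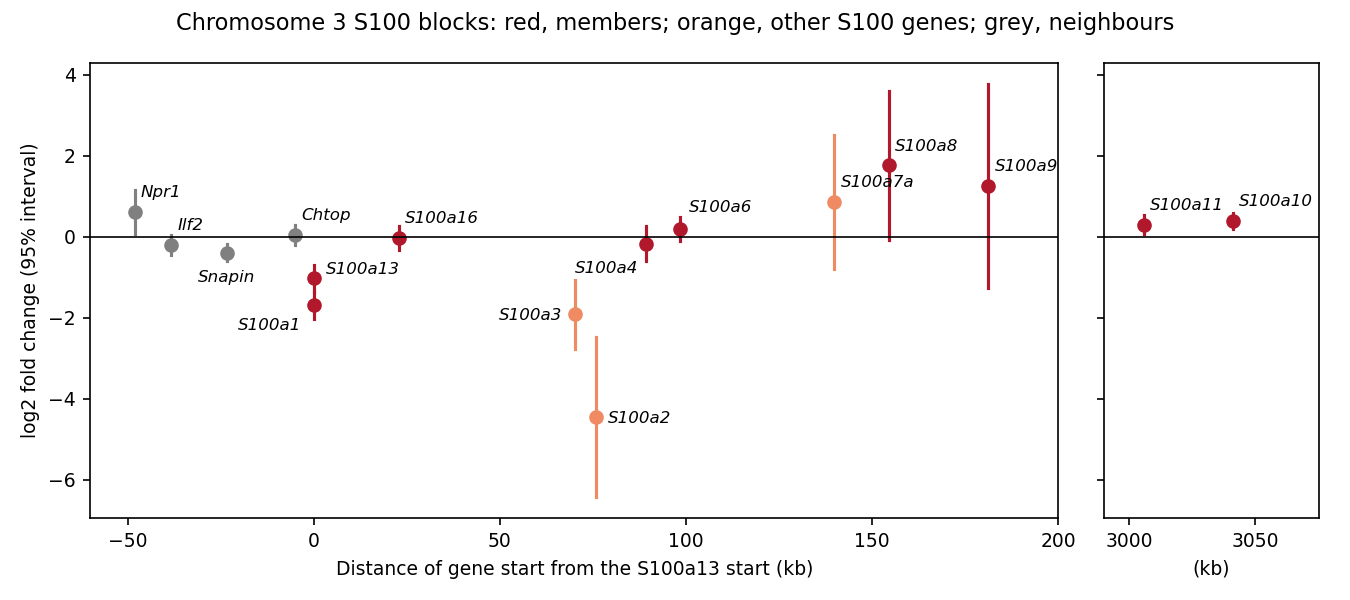
log2 fold change with its 95% interval for named tested genes of the chromosome 3 S100 blocks, against the distance in kb of each gene's start from the *S100a13* start, where the second panel holds *S100a11* and *S100a10*, about 3006 and 3041 kb away. The head-to-head pair at 0 kb and the genes at 70.2 and 75.8 kb lie below 0, and their neighbors lie near it or have wide intervals.

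Of the 7 further S100 genes in the table, 4 were too low to test (*S100a5*, *S100a14*, *S100g* and *S100z*). *S100a3*, a protein of the hair cuticle, had 212, 193 and 217 normalised reads across control-labelled replicates 1 to 3, against 90.9, 37.6 and 46.5 across mutant-labelled replicates 1 to 3. It was lower in each mutant-labelled nerve, at -1.91 ± 0.37 (log2 fold change and standard error, adjusted p = 0.00481). *S100a2* lies within *S100a3* on the same strand, so reads of both can be split, and it is named here after its values were seen. It had 49.97, 23.6 and 31.7 normalised reads across control-labelled replicates 1 to 3, against 0, 2.89 and 0 across mutant-labelled replicates 1 to 3 (adjusted p = 0.00478). *S100a7a* was not called, with an interval of its log2 fold change from -0.81 to 2.52.

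Partners of the S100 proteins were read from a list of 30 genes, all of which were tested. Past the threshold, 9 rose and 2 fell, that is 36.7% of them, against 24.2% of all tested genes (13.9% higher and 10.4% lower). The median log2 fold change of the 30 partners was 0.42. The list was chosen with earlier results of these data known, so these shares only describe the listed genes.

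Annexins carry S100 proteins to membranes, and 2 of the 6 rose past the threshold. *Anxa1*, the partner of *S100a11*, had 3536, 4036 and 2641 normalised reads across control-labelled replicates 1 to 3, against 16311, 17668 and 20894 across mutant-labelled replicates 1 to 3. It rose by 2.44 on the log2 scale (adjusted p = 2.32e-05). *Anxa7* rose from 3236 ± 169 to 9228 ± 1272 (adjusted p = 4.35e-05). *Anxa2*, the partner of *S100a10*, had 54891, 60893 and 57873.5 normalised reads across control-labelled replicates 1 to 3, against 91542, 84528.5 and 98752 across mutant-labelled replicates 1 to 3. It rose by 0.66 on the log2 scale (adjusted p = 0.00108), still under 2-fold. The ratio of *S100a10* to *Anxa2* went from 0.267 ± 0.0056 to 0.222 ± 0.0253 without overlap (log2 difference -0.27, exact permutation p = 0.1).

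Of the 3 receptors of released S100 proteins, 1 fell and 1 rose past the threshold. *Ager*, the gene of RAGE, fell from 1239 ± 248 to 486 ± 117 (log2 fold change -1.36, adjusted p = 0.00171). *Tlr4* rose from 560 ± 123 to 1712 ± 153 (log2 fold change 1.63, adjusted p = 0.000245). *Cd36* was not called, with a log2 fold change of -0.07 and overlapping values. All 3 genes of plasminogen activation, which the *S100a10* complex favors at the cell surface, rose. They were *Plat* (1.16), *Plau* (1.27) and the urokinase receptor *Plaur* (2.88, adjusted p = 4.78e-05).

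*Fgf1*, the growth factor exported with *S100a13*, fell from 14202 ± 709 to 4991 ± 392 (log2 fold change -1.51, adjusted p = 1.6e-05), as *S100a13* did. *Syt1*, a member of the same release complex, was low and rose from 12.6 ± 12.4 to 54.8 ± 13.3 (2.48, adjusted p = 0.0373). Leaving out 1 library moved this log2 fold change from 1.74, without control-labelled replicate 3, to 3.21, without control-labelled replicate 2, and the adjusted p was as high as 0.118, without mutant-labelled replicate 3. *Il1a*, the gene of interleukin 1 alpha, was low (means 5.27 and 12.1) and was not called (adjusted p = 0.299). Of the 4 calcium-handling genes bound by *S100a1*, *Atp2a2* (0.13, adjusted p = 0.276) and *Ryr2* (1.16, adjusted p = 0.306) were not called. *Atp2a1* rose by 2.77 (adjusted p = 0.0158) and *Ryr1* by 1.84 (adjusted p = 0.0516, with overlapping values). Both rising genes were highest in mutant-labelled replicate 3, the nerve with the most muscle RNA. Without that nerve *Atp2a1* stood at 2.08 (adjusted p = 0.0533) and *Ryr1* at 1.16 (adjusted p = 0.151), and without control-labelled replicate 2 they stood at 2.06 and 1.36. None of the 7 cytoplasmic partners or the 4 oxidase genes passed the threshold.

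The genes whose values followed the 3 lowered members most closely over the 6 libraries were sought among 13041 other genes with a symbol and a mean of at least 100. For *S100b* they were *Rnf103*, *Ypel2* and *Elmo1* (Pearson r of log2 values 0.9998, 0.9997 and 0.9997). For *S100a1* they were *Fn3krp*, *Ivd* and *Fcrls* (0.9992, 0.9987 and 0.9976), and for *S100a13*, *Fam81a*, *Uqcr11* and *Dcaf6* (0.9963, 0.9953 and 0.9941). The 6 points form 2 groups by genotype, so a high r mainly states that a gene was lower in the same 3 libraries.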

How the data were processed

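Sciatic nerves of 3 control and 3 mutant mice at P4 were profiled by oriented poly-A RNA-seq. The authors aligned reads to mm10 with STAR 2.4.0 (submitters' processing notes), counted reads on constitutive regions of FAST DB genes and divided them by DESeq2 size factors, so the deposited values are a normalised signal per gene. Whether counting used strand is not given in the sources used here. All nonzero values were whole multiples of 1 read's value (100%, tolerance 0.01), worth 0.727 to 1.27 normalised reads, which gave 50938349 to 78250094 reads on genes per library. With 3 libraries per group the smallest two-sided exact p is 0.1.

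Genes with a mean of at least 10 in at least 1 genotype were tested with limma 3.58.1 (R 4.3.3) on log2(value + 1), with a trended eBayes fit and Benjamini-Hochberg adjustment. edgeR 4.0.16 and DESeq2 1.42.0 on the recovered reads, other scalings, pseudocounts, minima, a replicate block and leaving out each library were alternatives. The study's own expression filter was not applied. The fit was tested on simulated data. The 10 genes, partner lists and marker lists were chosen with earlier results of these data known. All 10 genes were named, as was every partner past the threshold and, for each lowered gene, the 3 genes with the most similar values. Each library is 1 animal. Promoter windows are from RefSeq (GRCm38.p6). A planned ratio is not reported here.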

Additional observations from a re-analysis of the deposited data

How the results depend on the processing

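With 11 other settings and 6 fits that each left out 1 library, *S100b* (-3.39 to -2.81) and *S100a1* (-1.81 to -1.53) passed the threshold in all 17. The number of the 10 genes past it ran from 2, without mutant-labelled replicate 1, to 4, with DESeq2 and without mutant-labelled replicate 3. *S100a16* changed sign with the same total (0.13) and over the leave-one-out fits (-0.12 to 0.0496), as did *S100a4* (-0.34 to 0.0344, the latter without mutant-labelled replicate 1) and the log2 ratio of *S100a8* to *S100a9* (-0.23 to 1.29). The cause was not tested. *Ryr1* missed the threshold without the trend (1.84), without control-labelled replicate 2 (1.36) and without mutant-labelled replicate 3 (1.16). Without the trend, *Syt1* (0.0674) and *Atp2a1* (0.0708) had an adjusted p over 0.05, as *Syt1* had with edgeR (0.0692) and with the replicate block (0.0555). Genes called over the whole table ranged from 4706 (minimum mean of 50) to 6892 (no minimum). Rescaling to the same total moved the median log2 fold change of all genes from 0.03 to 0.20, and the share of calls that were higher from 57.3% to 66.4%, while a common 75th percentile gave -0.0865 and 50.3%.

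With the replicate number as a block, 3 of the 10 genes passed and 6149 genes in all. In this balanced design a block can change the p of a gene but not its log2 fold change (-3.07 for *S100b*). Same-numbered libraries did not deviate together (correlations -0.0619, -0.0555 and 0.00891), so they share only a number. *S100a9* rests on 4 to 63 reads in control-labelled libraries.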

Other observations

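An entry without a symbol in the table (GSMG0024583, chromosome 3, 90560576 to 90585325, plus strand) overlaps the start of the *S100a3* entry on the same strand. The GENCODE M21 model of *S100a3* (90560578 to 90602702, plus strand) covers nearly all of the entry without a symbol. Whether both entries belong to the same gene was not tested. The entry without a symbol had 676, 580.2 and 709.6 normalised reads across control-labelled replicates 1 to 3, against 77.8, 11.6 and 18.8 across mutant-labelled replicates 1 to 3. Its log2 fold change of -4.60 (adjusted p = 0.000658, limma) was a larger fall than that of the *S100a3* entry, and reads can be split between both entries. Unnamed genes on the opposite strand overlap *S100a6* (means 314 and 290.2), *S100a11* (265 and 251) and *S100a8* (0 in every library).

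Markers of further cells were counted in the same nerves. Of 6 T or NK cell markers, 4 rose, and their sum went from between 20.3 and 42.5 in control-labelled to between 253 and 620.4 in mutant-labelled nerves. Of 6 erythroid markers, 5 fell. Of 10 macrophage markers, 1 rose and 4 fell. Among 5 perineurial markers 1 fell, among 5 keratinocyte markers 2 rose, and none of 6 endothelial markers passed the threshold.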
